A study of Mus musculus with 14 samples.

Results

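The mitochondrial genome was read in the dentate gyrus of mouse slice cultures with and without the amyloid precursor protein. Its genes were taken as every row of the count tables whose symbol starts with mt-. There were 37 such rows among 55291, namely 13 mRNAs, 2 rRNAs and 22 tRNAs, and all 37 lie on chromosome M of the gene annotation that the authors deposited (GRCm38). The samples were 8 APPko libraries, from APP-deficient animals (APP-/-), and 6 wildtype libraries, from C57BL/6J animals (APP+/+). Each library held polyadenylated RNA of 1 dentate gyrus, cut with a scalpel from an organotypic entorhino-hippocampal culture that was prepared at postnatal day 4 to 5 and kept for at least 18 days. The labels name the libraries biological replicates and do not tie cultures to animals, so a p-value here reflects only how much cultures vary. The comparison asked how RNA levels differ in the dentate gyrus when the protein is missing.

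The mitochondrial genome is a small circle that mammalian cells carry in many copies. Both strands are transcribed from end to end into long precursor RNAs, and the tRNAs that lie between the other genes are cut out, which frees the mRNAs and rRNAs. The 13 mRNAs encode core subunits of the respiratory chain and of ATP synthase, whose other subunits are nuclear, and the 2 rRNAs form the mitochondrial ribosome that translates them. In the annotation, 28 of the 37 genes lay on the plus strand and 9 on the minus strand, and mt-Nd6 was the 1 mRNA on the minus strand. Neighbouring genes overlapped in places. The longest overlap was 43 bases between mt-Atp8 and mt-Atp6 on the same strand, and mt-Nd5 and mt-Nd6 shared 14 bases on opposite strands. Whether reads were counted by strand is not given in the sources used here, so reads in these overlaps cannot be assigned. If they were not, RNA of the opposite strand would count to a gene over its whole length. That limit holds for the minus-strand genes, among them mt-Nd6 and the tRNA gene mt-Tp.

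Total counts ran from 20298058 to 31031126 in APPko libraries and from 16686909 to 29713323 in wildtype libraries. App averaged 214 ± 17.8 CPM (counts scaled to library size, by TMM) in APPko libraries and 808 ± 130 CPM in wildtype libraries (SD, n = 8 and 6), and the groups did not overlap. The column headers of the tables end in f or m, with 7 f and 1 m among APPko libraries and 3 f and 3 m among wildtype libraries. Wildtype libraries 2 and 3, both f, stood apart from the rest. Their TMM scaling factors were 0.852 and 0.848, while those of the other libraries were at least 0.977. For 6 of the 15 mitochondrial mRNAs and rRNAs both lay below the other 4 wildtype libraries (mt-Nd1, mt-Nd2, mt-Nd3, mt-Nd6, mt-Rnr1 and mt-Rnr2), and for 3 both lay above them (mt-Co1, mt-Atp8 and mt-Atp6).

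Parts of the mitochondrial genome are also present in the nuclear genome as insertions, and several of these are annotated as pseudogenes with rows of their own. In GENCODE transcripts of the same build, 15 nuclear rows matched 11 of the mRNAs over at least 151 bases, the read length, at 90% identity or more. Of these, 7 lay side by side on chromosome 1 between 24611535 and 24616197, on the minus strand, in the order in which bases 6390 to 11042 of chromosome M hold mt-Co1, mt-Co2, mt-Atp6, mt-Co3, mt-Nd3, mt-Nd4l and mt-Nd4. Within that block, Gm28437 was identical to mt-Co3 over 783 bases, Gm28661 to mt-Co2 over 681 bases, Gm10925 to mt-Atp6 over 678 bases and Gm10222 to mt-Nd4l over 294 bases. The first 151 bases of mt-Co3 (chrM:8607-8757, plus strand) and of Gm28437 (chr1:24613821-24613971, minus strand) are shown because mt-Co3 is the member past the threshold below, and a read of this stretch could come from either. The first 61 bases of mt-Nd3 (chrM:9459-9519, plus strand) and Gm28438 (chr1:24613059-24613119, minus strand) hold the 1 mismatch in 345 aligned bases, in capitals. The start of mt-Co1 (chrM:5328-5478, plus strand) and of its chromosome 2 copy Gm13340 (chr2:22589497-22589647, minus strand) show a less similar copy (97.6% identity over 1545 bases), with the 3 differing bases in capitals.
mt-Co3: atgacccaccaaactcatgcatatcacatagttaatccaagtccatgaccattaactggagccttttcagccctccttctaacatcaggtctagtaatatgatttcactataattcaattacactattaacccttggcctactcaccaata
Gm28437: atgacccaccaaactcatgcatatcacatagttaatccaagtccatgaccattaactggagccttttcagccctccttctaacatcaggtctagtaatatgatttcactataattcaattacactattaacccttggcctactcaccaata
mt-Nd3: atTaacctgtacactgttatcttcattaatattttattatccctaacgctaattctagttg
Gm28438: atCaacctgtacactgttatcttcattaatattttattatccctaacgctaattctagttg
mt-Co1: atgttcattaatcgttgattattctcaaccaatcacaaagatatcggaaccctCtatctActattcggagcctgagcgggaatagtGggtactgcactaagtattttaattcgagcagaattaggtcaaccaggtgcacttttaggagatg
Gm13340: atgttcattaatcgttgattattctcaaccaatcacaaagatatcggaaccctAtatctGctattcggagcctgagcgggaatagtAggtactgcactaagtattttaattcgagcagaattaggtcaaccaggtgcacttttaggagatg

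The copies were set against the levels by counting, for each member, the windows of 151 bases that match a nuclear transcript exactly. That share was 99.8% for mt-Co3, 99.4% for mt-Co2, 99.4% for mt-Atp6, 97.96% for mt-Nd4l and 96.97% for mt-Nd3. It was 59.1% for mt-Nd4 and 23.6% for mt-Co1. It was 0 for both rRNAs, mt-Nd1, mt-Nd2, mt-Atp8, mt-Nd5, mt-Nd6 and mt-Cytb. No annotated transcript covers the 233 bases between Gm10925 and Gm28661 on chromosome 1, which equal in length the stretch of chromosome M between mt-Co2 and mt-Atp6 where mt-Atp8 begins, so the value for mt-Atp8 describes the annotated transcripts alone.

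Per length, the mRNAs formed a high and a low range. Averaged over all 14 libraries, mt-Co1 stood at 7708 CPM per kilobase, mt-Cytb at 5223, mt-Nd1 at 2993, mt-Nd6 at 2692, mt-Nd4 at 2225, mt-Nd2 at 1840 and mt-Nd5 at 1243. The other 6 mRNAs stood at 114 (mt-Co3), 52.2 (mt-Atp6), 41.8 (mt-Co2), 23.6 (mt-Nd3), 16.8 (mt-Atp8) and 14.9 CPM per kilobase (mt-Nd4l). These 6 lie next to each other on the genome and held 0.511% ± 0.032 of mitochondrial mRNA counts in APPko libraries and 0.667% ± 0.125 in wildtype libraries (SD, n = 8 and 6). The 5 members with at least 96.97% of windows shared are all in the low range, together with mt-Atp8, while mt-Nd4 and mt-Co1, with part of their windows shared, are in the high range. The copies had counts of their own. mt-Atp6 had 853 counts in the mean library and Gm10925 had 911, mt-Co2 had 689 and Gm28661 had 581, and mt-Co3 had 2088 and Gm28437 had 887. mt-Nd3 had 202 and Gm28438 had 30.6, and mt-Nd4l had 110 and Gm10222 had 52.6. How reads that fit several places were counted is not given in the sources used here, so the level of these 6 mRNAs on the tables' scale is uncertain. The part of the copies in the low levels was not tested.

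**Figure D1:**
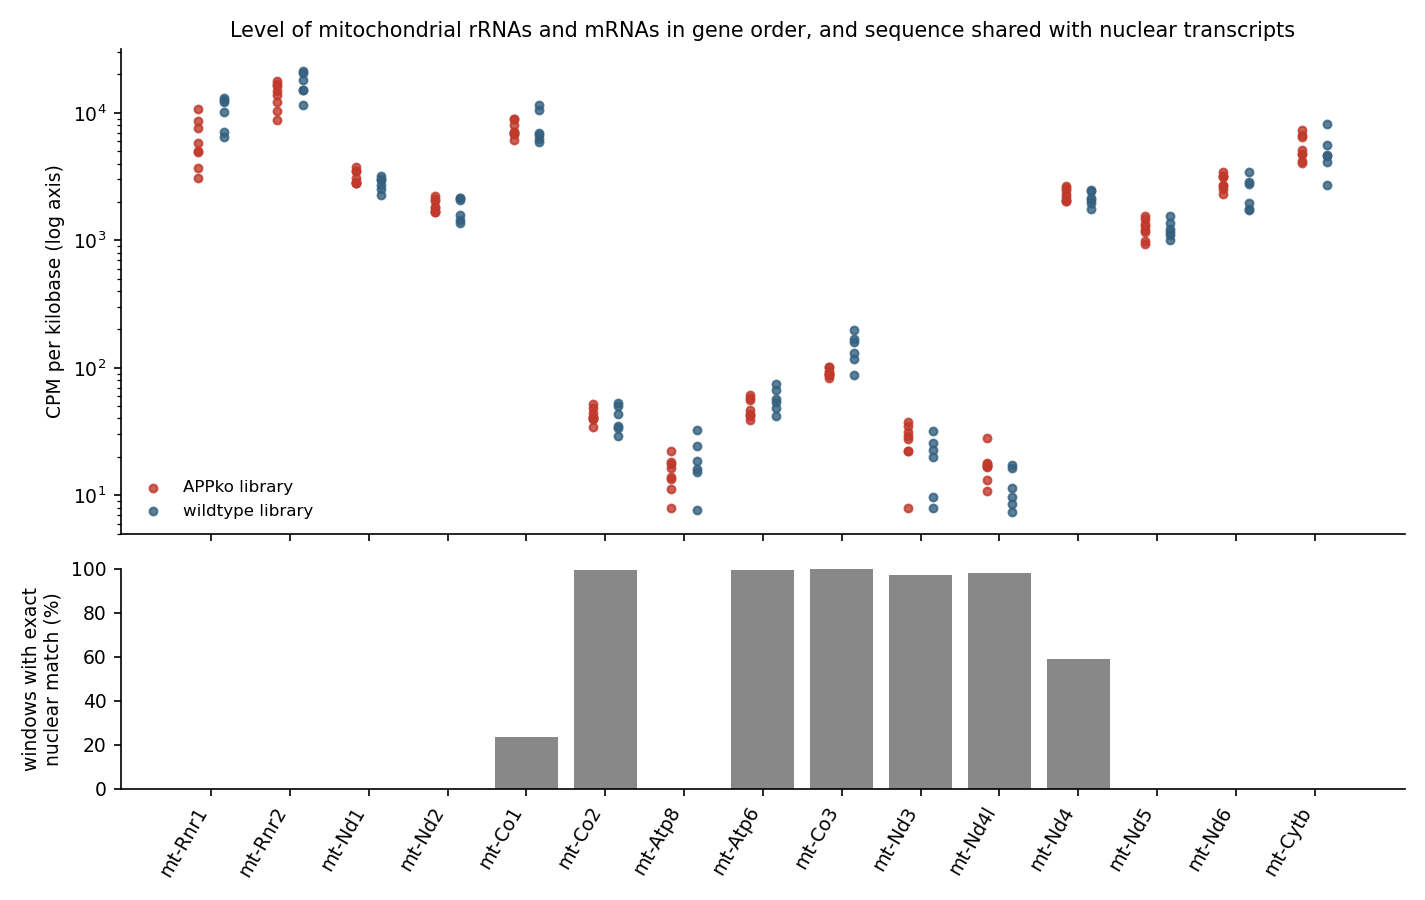
Upper panel: level of each mitochondrial rRNA and mRNA in genome order, as CPM per kilobase on a log axis, with 1 point per library (8 APPko left of 6 wildtype). Lower panel: percent of the member's 151-base windows that match a nuclear transcript exactly. The 6 adjacent mRNAs from mt-Co2 to mt-Nd4l, with means of 14.9 to 114 CPM per kilobase, lie below all other mRNAs and both rRNAs in both genotypes.

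Together the 37 genes took 4.77% to 6.77% of all counts in APPko libraries (median 6.23%) and 5.25% to 7.34% in wildtype libraries (median 6.63%). The means were 5.95% ± 0.754 and 6.40% ± 0.960 (SD, n = 8 APPko and 6 wildtype), a difference of -0.455 percentage points. The ranges overlapped, with 2 APPko libraries below the lowest wildtype library. The mRNAs and rRNAs lay in opposite directions. The mRNAs held 2.76% to 3.47% of counts in APPko libraries (mean 3.06% ± 0.314) and 2.52% to 3.21% in wildtype libraries (mean 2.79% ± 0.231), a difference of 0.268 points, and 3 APPko libraries lay above the highest wildtype library. The rRNAs held 1.71% to 3.95% in APPko libraries (mean 2.87% ± 0.790) and 2.11% to 4.59% in wildtype libraries (mean 3.59% ± 1.08), a difference of -0.718 points, and 7 of 8 APPko libraries lay below the wildtype median of 3.86%. The tRNAs held 0.016% ± 0.003 in APPko libraries and 0.020% ± 0.005 in wildtype libraries. These are sums over genes chosen with earlier results known, and they were given no test.

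A ratio within the mitochondrial genome does not depend on nuclear RNA. The libraries held polyadenylated RNA, so the ratio can still depend on how rRNAs and mRNAs passed this selection in each library. That was not tested, and the same limit holds for the rRNA and tRNA shares. The mRNA counts also include the mRNAs of the low range, whose level is uncertain. There were 0.509 to 1.41 rRNA counts per mRNA count in APPko libraries (mean 0.953 ± 0.306) and 0.657 to 1.82 in wildtype libraries (mean 1.31 ± 0.442), a difference of -0.353. Here too the groups overlapped, and 7 APPko libraries lay below the wildtype median of 1.38. Without wildtype libraries 2 and 3 this difference was -0.602, and that of the rRNA share was -1.35 points. Among f libraries alone, where wildtype libraries 2 and 3 make up 2 of 3 wildtype libraries, the ratio differed by -0.127 and the rRNA share by -0.048 points. The size of the rRNA difference therefore rested on which wildtype libraries were used. In bulk tissue, fewer cells of a type and less RNA per cell cannot be told apart.

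**Figure D2:**
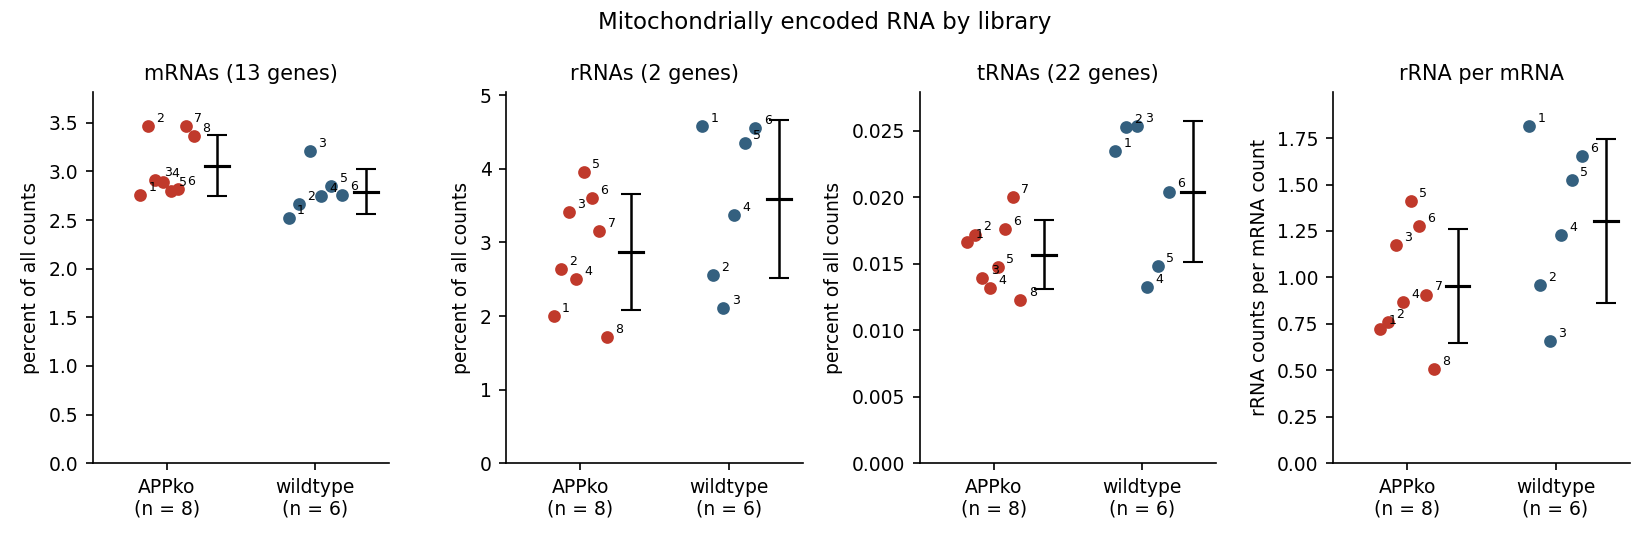
Share of all counts held by the mitochondrial mRNAs, rRNAs and tRNAs (percent), and rRNA counts per mRNA count, with 1 numbered point per library and the mean ± SD beside the points. APPko libraries centre on 3.06% for mRNAs and 2.87% for rRNAs, wildtype libraries on 2.79% and 3.59%, and the ranges overlap in every panel.

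Tested gene by gene with edgeR's quasi-likelihood test, 20 of the 37 members passed the expression filter, namely all 13 mRNAs, both rRNAs and 5 tRNAs. Of these, 1 was lower in APPko libraries and 0 were higher at an adjusted p under 0.05, where 2.35% of all 22150 tested genes were called, 1.41% lower and 0.944% higher. Without adjustment, 4 of the 20 had a p under 0.05, beside 20.4% of all tested genes, so the members' count was near the background. The log2 fold changes (APPko over wildtype) were positive for 11 and negative for 9, with a median of 0.04, and the median over all tested genes was -0.01. None of the 20 had genotypes whose libraries did not overlap, beside 1.12% of all tested genes.

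The ribosomal RNAs were among the members with the highest mean CPM, with mt-Co1 at rank 2 and mt-Rnr1 at rank 5 of all tested genes. mt-Rnr2, the large-subunit rRNA (chromosome M, 1094 to 2675, plus strand), ranked 1 of all tested genes by mean CPM. It had a lowest, median and highest level of 14026, 22604 and 27964 CPM in APPko libraries and 18183, 26455 and 33524 CPM in wildtype libraries. The fit gave a log2 fold change of -0.29 (SE 0.18, edgeR adjusted p = 0.36), so its groups were not separated beyond their spread. mt-Rnr1, the small-subunit rRNA (70 to 1024, plus strand), had 2948, 5170 and 10259 CPM in APPko libraries, against 6178, 10628 and 12518 CPM in wildtype libraries. APPko libraries 5, 6 and 7 reached into the wildtype range, and the other 5 lay below every wildtype library. The log2 fold change was -0.73 (SE 0.25, unadjusted p = 0.0092), with an edgeR adjusted p of 0.11, and DESeq2 gave an adjusted p of 0.034. Both rRNAs come from the same precursor, and their proportion varied between libraries. There were 0.181 to 0.367 mt-Rnr1 counts per mt-Rnr2 count in APPko libraries (mean 0.262 ± 0.061) and 0.259 to 0.414 in wildtype libraries (mean 0.362 ± 0.056). All 8 APPko libraries lay below the wildtype median of 0.377 and 5 lay below the lowest wildtype library. This ratio was looked at after the values were known and was not tested.

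Complex I, which takes electrons from NADH, is built around 7 mitochondrially encoded subunits. They made up 40.2% ± 3.23 of mitochondrial mRNA counts in APPko libraries and 38.7% ± 8.63 in wildtype libraries. mt-Nd1 had a lowest, median and highest level of 2676, 2859 and 3595 CPM in APPko libraries and 2174, 2715 and 3059 CPM in wildtype libraries (log2 fold change 0.18, SE 0.11, edgeR adjusted p = 0.41). mt-Nd2 had 1718, 1884 and 2325 CPM in APPko libraries and 1431, 1902 and 2230 CPM in wildtype libraries (0.06, SE 0.13, edgeR adjusted p = 0.83). The libraries of both genotypes overlapped for these membrane-arm subunits, and neither passed the threshold. For mt-Nd4 the values were 2781, 3097 and 3642 CPM in APPko libraries and 2421, 2883 and 3423 CPM in wildtype libraries (0.10, SE 0.11, edgeR adjusted p = 0.68). For mt-Nd5 they were 1713, 2285 and 2809 CPM in APPko libraries and 1823, 2193 and 2846 CPM in wildtype libraries (0.01, SE 0.13, edgeR adjusted p = 0.99). The groups overlapped over most of their range in these subunits, which belong to the proton-pumping part of the complex.

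The remaining complex I genes were mt-Nd6 and the low-count mt-Nd3 and mt-Nd4l. mt-Nd6 (13552 to 14070, minus strand) is transcribed from the opposite strand to the other mRNAs. Whether reads were counted by strand is not given, so its counts may include RNA of the other strand. mt-Nd6 had 1195, 1522 and 1794 CPM in APPko libraries and 895, 1227 and 1793 CPM in wildtype libraries (log2 fold change 0.26, SE 0.16, edgeR adjusted p = 0.38). As a share of mitochondrial mRNA counts it held 5.12% ± 0.988 in APPko libraries and 4.50% ± 1.83 in wildtype libraries. That difference of 0.620 points turned to -0.310 points without wildtype libraries 2 and 3. mt-Nd3 had 2.77, 9.93 and 12.99 CPM in APPko libraries and 2.79, 7.39 and 11.1 CPM in wildtype libraries (0.44, SE 0.31, edgeR adjusted p = 0.45). mt-Nd4l had 3.21, 5.03 and 8.29 CPM in APPko libraries and 2.21, 3.13 and 5.16 CPM in wildtype libraries (0.54, SE 0.23, edgeR adjusted p = 0.18). Its unadjusted p was 0.027, and APPko library 7 gave the value of 8.29 CPM. The lowest APPko values of mt-Nd3 and mt-Nd4l were those of library 8, the 1 m library of that genotype, and among f libraries alone both genes were called higher in APPko (log2 fold change 1.22, edgeR adjusted p = 0.0086, and 1.08, edgeR adjusted p = 0.0085), where 15.6% of tested genes were called, 7.1% higher and 8.47% lower. Of the 3 f wildtype libraries, 2 were libraries 2 and 3, with 3.39 and 2.79 CPM of mt-Nd3, the lowest of that genotype. Without these libraries, the fit over the remaining 12 gave 0.09 for mt-Nd3 and 0.36 for mt-Nd4l (edgeR adjusted p = 0.93 and 0.58).

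mt-Cytb encodes cytochrome b, the 1 mitochondrially encoded subunit of complex III. It had 4594, 5656 and 8350 CPM in APPko libraries and 3102, 5257 and 9321 CPM in wildtype libraries, so the wildtype range enclosed the APPko range. The log2 fold change was 0.13 (SE 0.20, edgeR adjusted p = 0.78). ATP synthase (complex V) has 2 mitochondrially encoded subunits of its membrane part. mt-Atp6 had 26.4, 30.5 and 41.99 CPM in APPko libraries and 28.6, 37.8 and 51.1 CPM in wildtype libraries (-0.24, SE 0.14, edgeR adjusted p = 0.34). mt-Atp8 had 1.61, 3.09 and 4.51 CPM in APPko libraries and 1.56, 3.53 and 6.60 CPM in wildtype libraries (-0.33, SE 0.26, edgeR adjusted p = 0.51). Together they held 0.120% ± 0.009 of mitochondrial mRNA counts in APPko libraries and 0.145% ± 0.017 in wildtype libraries, with 4 APPko libraries below the lowest wildtype library. Without wildtype libraries 2 and 3 the log2 fold change was -0.05 for mt-Atp6 and 0.08 for mt-Atp8.

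Complex IV, cytochrome c oxidase, passes electrons to oxygen and has 3 mitochondrially encoded core subunits. mt-Co1, its catalytic subunit and the mRNA of the genome with the most assigned counts, had 9541, 10903 and 13851 CPM in APPko libraries and 9179, 10550 and 17888 CPM in wildtype libraries. The high wildtype end came from libraries 2 and 3, at 16407 and 17888 CPM. The log2 fold change was -0.10 (SE 0.16, edgeR adjusted p = 0.79). mt-Co2, which holds the copper centre that receives electrons from cytochrome c, had 23.3, 28.0 and 35.5 CPM in APPko libraries and 20.03, 26.9 and 35.9 CPM in wildtype libraries (0.06, SE 0.14, edgeR adjusted p = 0.84).

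mt-Co3, the third core subunit (8607 to 9390, plus strand), was the member past the threshold. It had a lowest, median and highest level of 65.7, 70.7 and 79.7 CPM in APPko libraries, against 68.4, 114 and 154 CPM in wildtype libraries. Wildtype library 4, at 68.4 CPM, lay among the APPko libraries, and the other 5 wildtype libraries lay above all 8. The means were 72.2 ± 5.07 CPM in APPko libraries and 112 ± 30.9 CPM in wildtype libraries (SD, n = 8 and 6), so mt-Co3 fell by 0.64 on the log2 scale (SE 0.14, edgeR adjusted p = 0.028), a 1.56-fold lower level. Among mitochondrial mRNA counts, its share was 0.244% ± 0.024 in APPko libraries and 0.386% ± 0.096 in wildtype libraries.

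The mt-Co3 call depended on the libraries. Leaving out wildtype library 2 gave an edgeR adjusted p of 0.064, wildtype library 3 one of 0.077, and both together a log2 fold change of -0.45 with an adjusted p of 0.14. The call was also lost without APPko library 1 (edgeR adjusted p = 0.065), 2 (0.052), 4 (0.058), 5 (0.081), 6 (0.057) or 7 (0.057). The log2 fold change stayed between -0.75 and -0.53 in these fits with 1 library less. With only f libraries it was -0.81 (edgeR adjusted p = 0.0011). Its chromosome 1 copy Gm28437 had 27.2 to 38.8 CPM in APPko libraries (mean 33.0 ± 4.19) and 37.7 to 47.2 CPM in wildtype libraries (mean 42.9 ± 4.07), a log2 fold change of -0.38 (SE 0.10, edgeR adjusted p = 0.053). When the counts of the copies were added to the members they match, an alternative chosen after the data were seen, mt-Co3 averaged 105 ± 8.20 CPM in APPko libraries and 155 ± 33.6 CPM in wildtype libraries. The log2 fold change was then -0.56 and the edgeR adjusted p = 0.028.

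**Figure D3:**
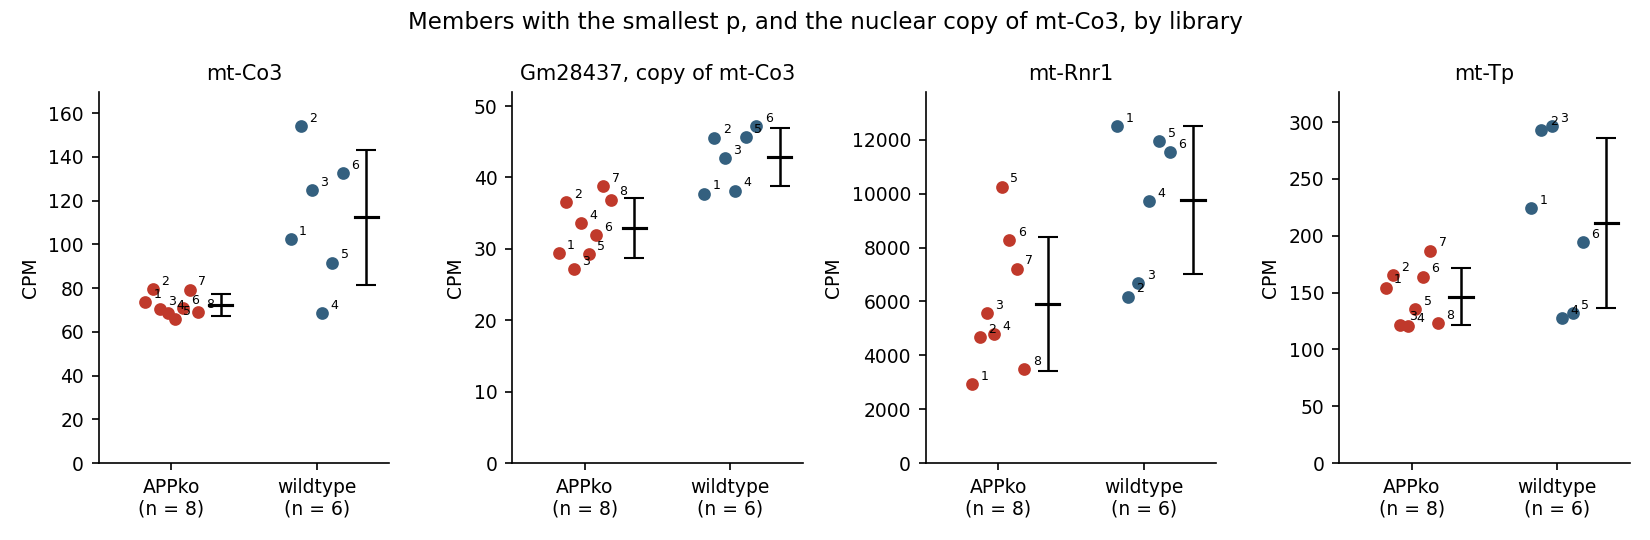
CPM of mt-Co3, of its identical nuclear copy Gm28437, of mt-Rnr1 and of mt-Tp, with 1 numbered point per library and the mean ± SD beside the points. For mt-Co3 the 8 APPko libraries lie between 65.7 and 79.7 CPM, and wildtype libraries other than number 4 lie above them.

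**Figure D4:**
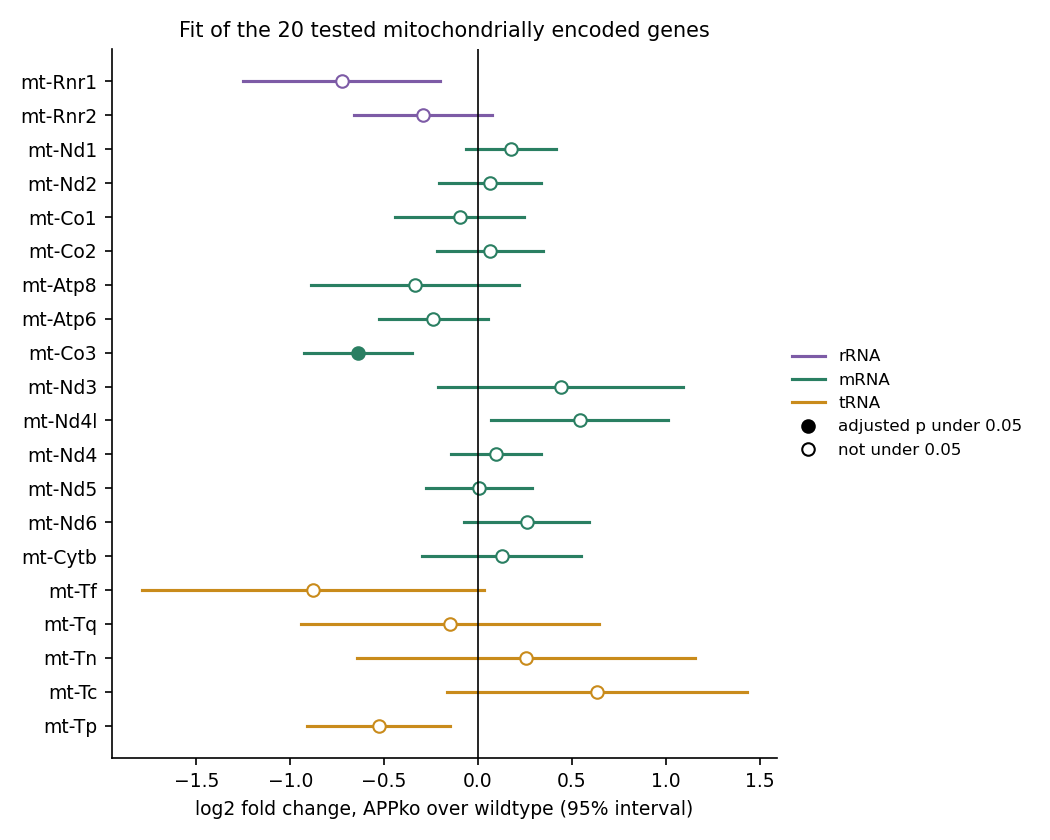
Fitted log2 fold change (APPko over wildtype) with its 95% interval for the 20 tested members, grouped as rRNAs, mRNAs and tRNAs in genome order. The 1 filled point, mt-Co3 at -0.64, passed the adjusted threshold, and most other intervals include 0.

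The tRNAs are 59 to 75 bases long, shorter than a 151-base read. A full-length read counted to a tRNA gene therefore also covers sequence outside it, and need not come from the tRNA itself. Of the 22, 17 had at most 10 counts in the mean library (highest 8.21, mt-Ts1), and of those 17, mt-Tw, mt-Tk and mt-Tg had 0 counts in all 14 libraries. mt-Tp, the proline tRNA next to the control region, was the exception and held 96.2% ± 0.848 of tRNA counts in APPko libraries and 97.3% ± 1.58 in wildtype libraries. Its sequence (chrM:15356-15422, minus strand) is shown because nearly all tRNA counts were assigned to this gene of 67 bases.
mt-Tp: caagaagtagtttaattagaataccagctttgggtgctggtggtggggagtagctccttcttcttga

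mt-Tp had a lowest, median and highest level of 121, 145 and 187 CPM in APPko libraries and 128, 209 and 297 CPM in wildtype libraries. The 2 highest wildtype values were those of libraries 2 and 3 (293 and 297 CPM), and wildtype libraries 4 and 5 lay within the APPko range. The log2 fold change was -0.53 (SE 0.18, unadjusted p = 0.0088, edgeR adjusted p = 0.11), and without wildtype libraries 2 and 3 it was -0.21 (edgeR adjusted p = 0.63). DESeq2 gave an adjusted p of 0.048, leaving out wildtype library 4 an edgeR adjusted p of 0.033, and the header suffix as a covariate an edgeR adjusted p of 0.014. The other 4 tested tRNAs had medians of at most 2.37 CPM in APPko libraries and 1.44 CPM in wildtype libraries. mt-Tf, for phenylalanine, had a log2 fold change of -0.88 (edgeR adjusted p = 0.26), which turned to 0.31 among f libraries alone, and mt-Tc, for cysteine, one of 0.63 (edgeR adjusted p = 0.37). Among f libraries alone mt-Tc had 1.55 (edgeR adjusted p = 0.012), where 15.6% of tested genes were called. Without wildtype libraries 2 and 3 it had 0.24 (edgeR adjusted p = 0.83). mt-Tq, for glutamine, had -0.15 (edgeR adjusted p = 0.87) and mt-Tn, for asparagine, 0.26 (edgeR adjusted p = 0.79). In the fit of all libraries, none of these 4 tRNAs was separated from the spread between cultures.

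Nuclear partners of the mitochondrial genome were read as lists, by their counts and medians. Among 85 tested nuclear genes of the respiratory chain and ATP synthase, 4 were higher in APPko libraries and 0 lower by edgeR, beside 0.944% and 1.41% of all tested genes. At an unadjusted p under 0.05 there were 15 higher and 8 lower, beside 9.07% and 11.4% of all tested genes. DESeq2 called 9 higher and 3 lower, beside 4.77% and 6.7% of all genes to which it gave an adjusted p. The median log2 fold change was -0.01, as for all genes to 2 decimals, and 41 of the 85 were positive. Cox6a1, a structural subunit of complex IV, averaged 1515 ± 143 CPM in APPko libraries and 931 ± 275 CPM in wildtype libraries (log2 fold change 0.70, SE 0.15, edgeR adjusted p = 0.030), with no overlap. Cox8a, the smallest complex IV subunit, averaged 982 ± 86.9 CPM in APPko libraries and 630 ± 150 CPM in wildtype libraries (0.64, SE 0.13, edgeR adjusted p = 0.028), also with no overlap. Cox4i2, an alternative form of a regulatory complex IV subunit, rose by 0.93 (SE 0.24, edgeR adjusted p = 0.047), and Atp5g2, which encodes the c-ring subunit of ATP synthase, by 0.64 (SE 0.13, edgeR adjusted p = 0.026). Hence 3 nuclear subunits of complex IV were called higher, while mt-Co3 of the same complex was called lower. Its core subunits mt-Co1 (log2 fold change -0.10, edgeR adjusted p = 0.79) and mt-Co2 (0.06, edgeR adjusted p = 0.84) were not called. Of the read-length windows of mt-Co3, 99.8% match a nuclear transcript exactly, so its level is uncertain. In the nuclear list no gene was called without wildtype libraries 2 and 3 together, or without any 1 of wildtype libraries 2 and 3 and APPko libraries 2, 5 and 7. Over all fits with 1 library less and the fit without both wildtype libraries, the log2 fold change was 0.53 to 0.82 for Cox6a1, 0.50 to 0.73 for Cox8a, 0.75 to 1.15 for Cox4i2 and 0.56 to 0.76 for Atp5g2. With 2 calls each, the list also lost calls without APPko library 1, 4 or 6, and without wildtype library 4 it had 8 higher and 2 lower. Among f libraries alone, 8 were higher and 18 lower, beside 7.1% and 8.47% of all genes tested in those libraries.

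No gene was called by edgeR in 6 lists for the handling of mitochondrial DNA, RNA and protein. Of their 115 tested genes, 21 had an edgeR unadjusted p under 0.05, beside 20.4% of all tested genes. DESeq2 called 6 (Fastk, Fastkd1 and Tsfm higher, and Iars2, Esrrg and Ppargc1a lower), beside 11.5% of all genes to which it gave an adjusted p. The lists held 19 tested genes of transcription and replication, 32 of RNA processing, 23 of tRNA charging, 14 of translation, 19 of import and matrix enzymes, and 8 regulators of biogenesis. Their median log2 fold changes were -0.06, -0.09, -0.00, -0.10, -0.06 and 0.11 in that order. The smallest p of the RNA processing list was that of Fastk, whose protein family regulates mitochondrial RNA, at 20.9 ± 2.35 CPM in APPko libraries and 11.3 ± 5.34 CPM in wildtype libraries (log2 fold change 0.89, edgeR adjusted p = 0.056). Its relative Fastkd1 followed at 0.49 (edgeR adjusted p = 0.099). Polg2, the accessory subunit of the mitochondrial DNA polymerase, had -0.45 (edgeR adjusted p = 0.13) and the termination factor Mterf1a also had -0.45 (edgeR adjusted p = 0.21). Of the genes that charge tRNAs, Iars2, for isoleucine, had -0.29 (edgeR adjusted p = 0.074) and Lars2, for leucine, had 1.59 (edgeR adjusted p = 0.16). Lars2 ranged from 61.5 to 528 CPM in APPko libraries and from 13.7 to 205 CPM in wildtype libraries, so it varied as widely within a genotype as between them.

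For further named genes of these lists, edgeR's adjusted p stayed above the threshold. The elongation factor Tsfm had 0.58 (edgeR adjusted p = 0.098) and the initiation factor Mtif2 -0.23 (edgeR adjusted p = 0.18). Tomm70a, an import receptor, had -0.34 (edgeR adjusted p = 0.14) and Slc25a4, the ADP/ATP carrier, 0.38 (edgeR adjusted p = 0.17). The nuclear receptor Esrrg had -0.64 (edgeR adjusted p = 0.069) and Ppargc1a, the coactivator that drives mitochondrial biogenesis, -0.29 (edgeR adjusted p = 0.11). Among 5 nuclear-retained long RNAs (Malat1, Neat1, Meg3, Snhg11 and Xist), edgeR called none. They were read beside the balance of nuclear and cytoplasmic RNA, which was not tested. The 2 with an edgeR unadjusted p under 0.05 (Meg3 and Snhg11) were lower, beside 11.4% of all tested genes lower at that p. DESeq2 called both lower, beside 6.7% of all genes to which it gave an adjusted p. Meg3 had -0.44 (edgeR adjusted p = 0.082) and Snhg11 -0.39 (edgeR adjusted p = 0.12), and their list summed to 10428 to 13343 CPM in APPko libraries and 11716 to 18702 CPM in wildtype libraries.

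Cell type markers were read beside these values. The 4 neuron markers (Rbfox3, Snap25, Syt1, Tubb3) summed to 2304 to 3297 CPM in APPko libraries and 2385 to 4663 CPM in wildtype libraries. A positive log2 fold change was seen in 0 of 4 neuron markers, 1 of 4 granule cell, 1 of 4 oligodendrocyte, 3 of 4 astrocyte, 2 of 4 microglia, 2 of 4 endothelial and 1 of 3 tested choroid plexus and blood markers, beside 48.3% of all tested genes. The 4 granule cell markers, which define the tissue, summed to 325 to 624 CPM in APPko libraries and 397 to 901 CPM in wildtype libraries. Astrocyte markers summed to 3283 to 4983 CPM in APPko libraries and 3652 to 4549 CPM in wildtype libraries, and oligodendrocyte markers to 452 to 781 CPM in APPko libraries and 407 to 1187 CPM in wildtype libraries. Microglia markers summed to 177 to 288 CPM in APPko libraries and 114 to 215 CPM in wildtype libraries, and 1 of 4, Tyrobp, was called higher (log2 fold change 1.07, SE 0.23, edgeR adjusted p = 0.028). Tyrobp averaged 114 ± 19.6 CPM in APPko libraries and 54.5 ± 27.8 CPM in wildtype libraries, while the log2 fold change was -0.03 for Cx3cr1 and -0.26 for P2ry12, neither of them called. Endothelial markers summed to 9.01 to 20.6 CPM in APPko libraries and 9.37 to 17.1 CPM in wildtype libraries, and choroid plexus and blood markers to 1.07 to 4.49 CPM in APPko libraries and 1.18 to 2.98 CPM in wildtype libraries. Apart from Tyrobp, no marker was called by edgeR or DESeq2, and 6 of 27 tested markers had an unadjusted p under 0.05, beside 20.4% of all tested genes. The part of cell composition in the mitochondrial values was not tested.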

How the data were processed

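Polyadenylated RNA of 14 libraries (8 APPko, 6 wildtype, grouped by title) was sequenced as paired 151-base reads. Per the submitters' processing notes, the authors used featureCounts 2.0.1, STAR 2.7.8a and cutadapt 3.5 with build GRCm38 (also named mm10), and they deposited 1 table of unnormalized counts by gene symbol for each library. How multi-mapping reads and strand were handled is not given in the sources used here. Total counts were 16686909 to 31031126 per library. Reads carry no molecular identifiers, so they are not independent molecules.

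The whole table was fitted with edgeR 4.0.16 (R 4.3.3, limma 3.58.1): expression filter by genotype (22150 genes kept), TMM scaling, robust quasi-likelihood test without covariates, Benjamini-Hochberg adjustment over all tested genes, threshold 0.05. DESeq2 1.42.0 was an alternative, beside other scalings, filters, left-out libraries, header suffix, replicate number and thinning. Shares were taken of total counts and CPM values were TMM-scaled. Genome positions were copied from the gene annotation deposited by the authors, and 37 of 37 members had the same positions in the GENCODE release whose transcript sequences were used. Nuclear copies were found by aligning these transcripts with BLAST 2.17.0. Counts differed beyond sampling noise in each of the 43 pairs of libraries within a genotype (lowest chi-square per degree of freedom 7.76). The procedure was tested on simulated data. The members and lists were chosen with earlier results of these data known. All mRNAs and rRNAs are named, tRNAs if over 10 counts in the mean library, and of each list the 2 tested genes with the smallest p and those called, with marker lists by sums and calls.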

Additional observations from a re-analysis of the deposited data

Results flagged for a closer look

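The mt-Nd4l level of APPko library 7, at 8.29 CPM, lay far from the other 7 APPko libraries. Its gap to the nearest library was 0.581 of the group's range. Of 52 groups examined this way, 1 had such a value, and chance gives about 1 in 20.

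The genotype difference depended on the header suffix for 2 of the 20 tested members in edgeR's interaction test, beside 411 of all 22150 tested genes. For mt-Nd3 the log2 difference in m libraries minus that in f libraries was -2.97 (edgeR adjusted p = 0.026), and for mt-Tc it was -3.38 (edgeR adjusted p = 0.036). The APPko genotype has 1 m library (library 8), with 2.77 CPM of mt-Nd3 and 0.591 CPM of mt-Tc. The m wildtype libraries had 7.86, 8.94 and 11.1 CPM of mt-Nd3 and 1.38, 2.81 and 2.19 CPM of mt-Tc. Among f libraries, mt-Nd3 ran from 7.67 to 12.99 CPM in APPko libraries and from 2.79 to 6.93 CPM in wildtype libraries. The f wildtype libraries 2 and 3 had 3.39 and 2.79 CPM of mt-Nd3 and 0.779 and 0.336 CPM of mt-Tc. Both results use 1 APPko m library, the wildtype libraries that stand apart, and low counts (16 counts of mt-Tc and 75 of mt-Nd3 in APPko library 8).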

How the results depend on the processing

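The count of called members was 1. It was 3 with DESeq2 (mt-Co3, mt-Rnr1, mt-Tp), beside 11.5% of all genes to which it gave an adjusted p. DESeq2 gave none to mt-Tf, mt-Tq and mt-Tn. The count was 2 with the header suffix as a covariate (mt-Co3, mt-Tp), beside 6.53% of all tested genes. With f libraries alone it was 6 of 22 tested members, beside 15.6% of all tested genes. Of these 6, 2 were lower (mt-Co3 and mt-Tp) and 4 higher (mt-Tc, mt-Nd3, mt-Tr and mt-Nd4l). The count was 0 without wildtype libraries 2 and 3, and 0 with the replicate number as a block. With 1 library left out in turn it ran from 0 to 2. Over all genes, 521 were called, against 1801 with DESeq2, 1446 with the suffix as a covariate, 3672 with f libraries alone, 35 without wildtype libraries 2 and 3, 20 with the replicate block and 38 to 1436 with 1 library left out. The replicate numbers did not pair the libraries (correlations of same-numbered deviations -0.34 to 0.19), and under the block mt-Co3 had an edgeR adjusted p of 0.089. Total counts without TMM moved the median of all genes to 0.08 on the log2 scale, changed the split of calls to 235 higher and 118 lower, and gave mt-Co3 -0.53 (edgeR adjusted p = 0.036). With no expression filter the split was 304 higher and 170 lower.

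Several uncalled members changed sign. Without wildtype libraries 2 and 3, mt-Nd2 had -0.079, mt-Tn -0.18, mt-Co1 0.22, mt-Co2 -0.072 and mt-Atp8 0.079. mt-Tf, at -0.88 in all libraries, had 0.31 with f libraries alone, and mt-Co1 0.024 with total counts alone. mt-Nd5 had -0.00038 with median-of-ratios factors and with DESeq2, -0.035 with f libraries alone and -0.086 with the block. With 1 library left out, mt-Co1 ran from -0.17 to 0.054, mt-Cytb from -0.00037 to 0.34, mt-Nd5 from -0.048 to 0.10 and mt-Tq from -0.31 to 0.067. The cause was not tested. The 6 share and ratio differences moved by less than the spread between libraries under the alternatives run. Most of them were themselves smaller than that spread, so this does not show that they were stable. That of all mitochondrial counts was 0.161 points with f libraries alone and -1.01 without wildtype libraries 2 and 3. The rRNA share difference went from -0.718 points to -0.048 points with f libraries alone. The mt-Nd6 share difference turned to -0.310 points without wildtype libraries 2 and 3. The 17 tRNAs with at most 10 counts in the mean library did not pass the expression filter, and mt-Tr and mt-Ts1 passed it in some alternatives.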

Other observations

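The proportion of a nuclear copy to the member it matches was read in each library for all 15 copies, after the data were seen and without a test. For 14 copies the genotypes overlapped. Gm28438, which differs from mt-Nd3 by 1 base in 345, had 0.092 to 0.133 counts per mt-Nd3 count in APPko libraries and 0.153 to 0.302 in wildtype libraries, with no overlap. Its mean count was 30.6 per library, and that of mt-Nd3 was 202. Gm28437 per mt-Co3 count ran from 0.386 to 0.535 in APPko libraries and from 0.296 to 0.558 in wildtype libraries, and these groups overlapped.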
